A study of Saccharomyces cerevisiae with 12 samples.

Results

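The 35 genes described here encode the SUMO system of budding yeast (Saccharomyces cerevisiae), the SUMO-targeted ubiquitin ligase Slx5/Slx8, the ATPase Cdc48 with its cofactors, and ubiquitin with enzymes that attach it. They were listed by systematic name for these known roles, with earlier results of these data already known. No measured value served as a criterion, and all 35 were found among the 5581 genes that had a single-match probe set on the array. By role they comprised 7 genes for SUMO and its conjugation, 3 for SUMO removal, 4 for SUMO-targeted and related ligases, 13 for Cdc48 and its cofactors and 8 for ubiquitin and its enzymes.

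Transcript levels were measured on 12 arrays of the Affymetrix Yeast Genome 2.0 type. In experiment A, 3 arrays of the wild-type strain Y0003 stood beside 3 arrays of strain MJK448 (ymr111c/euc1∆), which lacks EUC1. In experiment B, 3 further arrays of Y0003 stood beside 3 arrays of strain MJK612 (ymr111c/euc1-K231R), in which a lysine of Euc1 is exchanged for arginine and the allele carries a URA3 marker. All groups were grown with shaking in YP medium containing 2% glucose at 30°C and were collected during mid-log growth (OD600 between 0.7 and 1). The arrays of a group are described as biological triplicates, but each genotype was represented by 1 strain, and growth in rich medium without added stress was the only condition. P-values therefore measure the spread between cultures of one strain, and 3 arrays per group limit the precision.

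SUMO is a small protein that is joined to lysines of other proteins by an activating enzyme (Aos1 with Uba2), a conjugating enzyme (Ubc9) and SUMO ligases, and is taken off again by the proteases Ulp1 and Ulp2. Slx5/Slx8 recognises SUMO-carrying proteins and joins ubiquitin to them, and Cdc48 with Ufd1 and Npl4 pulls ubiquitin-carrying proteins out of complexes and off chromatin. Euc1 is a DNA-binding protein at ub-hotspots, chromosomal sites where these activities meet, and the question followed here is whether the transcripts of this machinery differ in cells with altered Euc1.

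EUC1 (YMR111C) itself served as the check of the euc1∆ label. In experiment A the wild-type arrays read 9.02, 9.15 and 9.14 on the log2 scale and the euc1∆ arrays 3.72, 3.88 and 3.64, a log2 fold change of -5.36 ± 0.07 (SE), which passed the test (adjusted p = 2.26e-07). In experiment B the wild-type arrays read 9.18, 9.25 and 9.09 and the euc1-K231R arrays 8.19, 8.15 and 8.12, a log2 fold change of -1.02 ± 0.05 (SE), which passed as well (adjusted p = 0.000181). That value shows a lower EUC1 transcript in this strain and is no check of the lysine exchange. Probe sets for the fission yeast S. pombe, which has no RNA in these samples, had a median of 3.95 and a 95th percentile of 5.29, so the transcript of the deleted gene stood at the array background. The array medians lay between 10.4 and 10.6, and the 6 markers of mating type a stood at 10.3 to 13.8 on every array. Of the 4 alpha markers the alpha-factor gene MF(ALPHA)1 had group means of 3.83 to 4.14, within the background, while MF(ALPHA)2, STE3 and SAG1 stood above it, at up to 9.51. The experiments were normalised separately, so levels are compared only within an experiment.

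All 35 genes had group means above the S. pombe 95th percentile in both experiments. MMS21 came nearest to that background, with group means from 5.32 to 6.07, and every other group mean was 7.58 or more. Replicates lay close together: the median SD of these genes within a group was 0.04 in both groups of experiment A, 0.05 in the wild type of experiment B and 0.06 in euc1-K231R.

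The comparison of each mutant with its wild type asks which of these transcripts differ in cells without EUC1 or with the euc1-K231R allele. That allele also carries a URA3 marker, and its EUC1 transcript was lower (log2 fold change -1.02). Effects of the lysine exchange, the marker and the lower transcript cannot be told apart in experiment B. None of the 35 passed an adjusted p of 0.05 (limma, Benjamini-Hochberg over 5581 genes) in either mutant. Levels are averages over a culture, in which fewer cells with a transcript and less of it per cell cannot be told apart. Across all genes 0.125% passed in euc1∆ and 0.896% in euc1-K231R. At an unadjusted p under 0.05 there were 4 of the 35 in euc1∆ (11.4%, beside 12.4% of all genes). In euc1-K231R there were 7 (20%, beside 19.4% of all genes). In this fit the shares were near those of the whole array, but not under every alternative given at the end. The median log2 fold change was -0.01 in euc1∆ and 0.03 in euc1-K231R, beside 0.00116 and 0.00369 over all genes. The median size of the change, without its sign, was 0.05 in euc1∆, as over all genes, and 0.09 in euc1-K231R beside 0.07 over all genes.

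**Figure D1:**
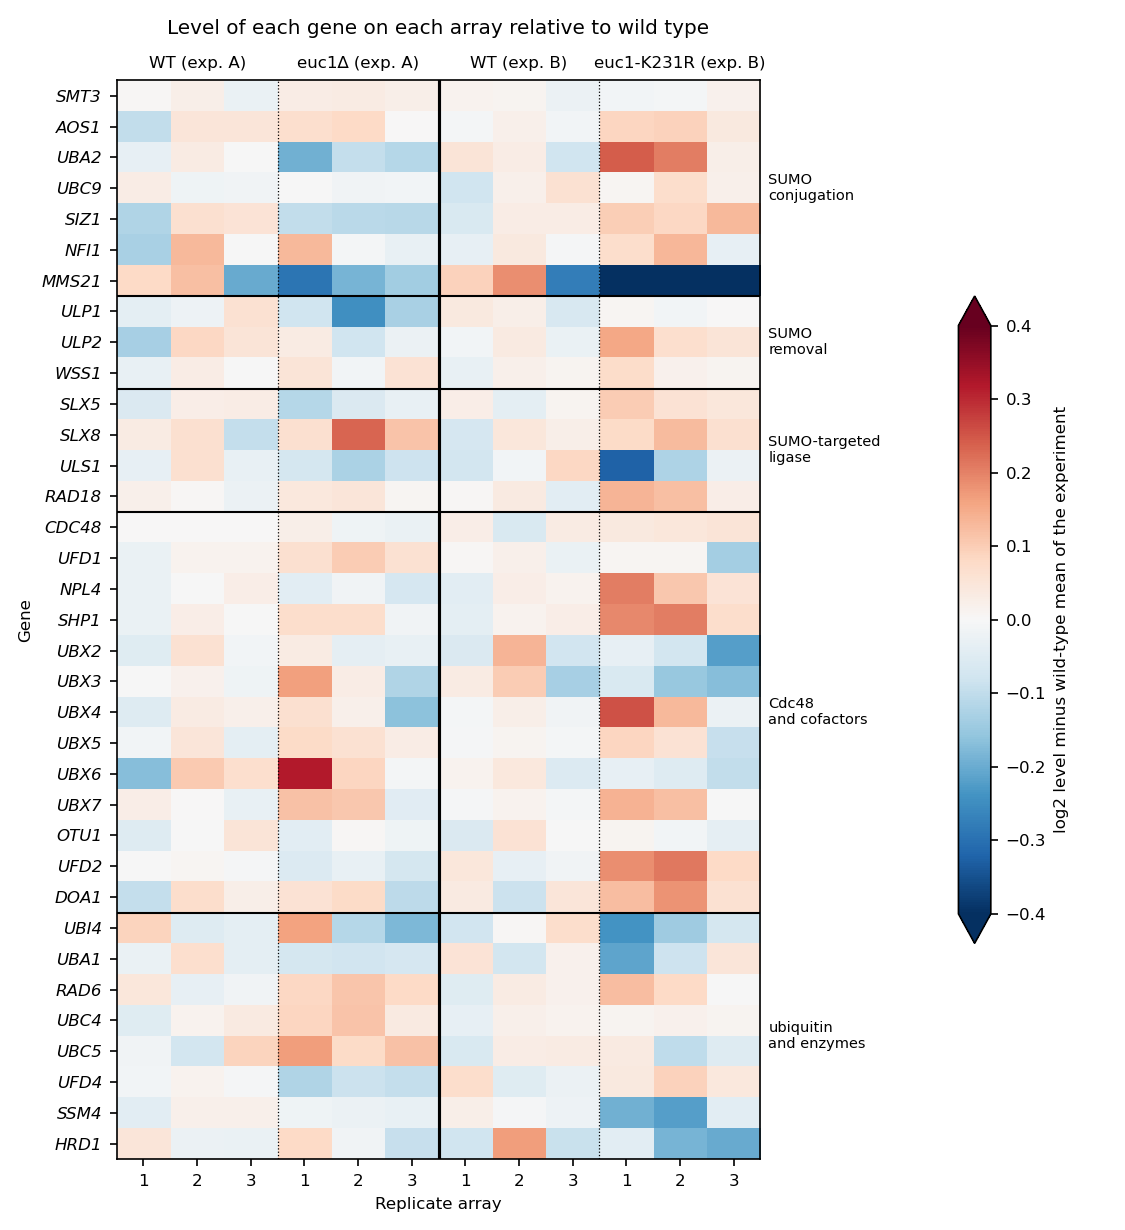
Heat map of the 35 genes (vertical axis, by role) on the 12 arrays (horizontal axis). Colour is the log2 level minus the wild-type mean of the same experiment. The scale ends at 0.4 in either direction, which the 3 euc1-K231R arrays exceed for MMS21 alone, and the remaining values are mostly pale, as the median sizes of change of 0.05 and 0.09 show.

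The precision of the arrays limits how large an undetected change could be. In euc1∆ the 95% confidence interval of the log2 fold change lay within 0.5 of 0 for all 35 genes, within 0.3 for 33 and within 0.2 for 26. In euc1-K231R it lay within 0.5 for 34, within 0.3 for 31 and within 0.2 for 18. A log2 change of 0.5 is a 1.41-fold difference and one of 0.3 a 1.23-fold difference. The gene whose interval exceeded 0.5 was MMS21 in euc1-K231R.

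**Figure D2:**
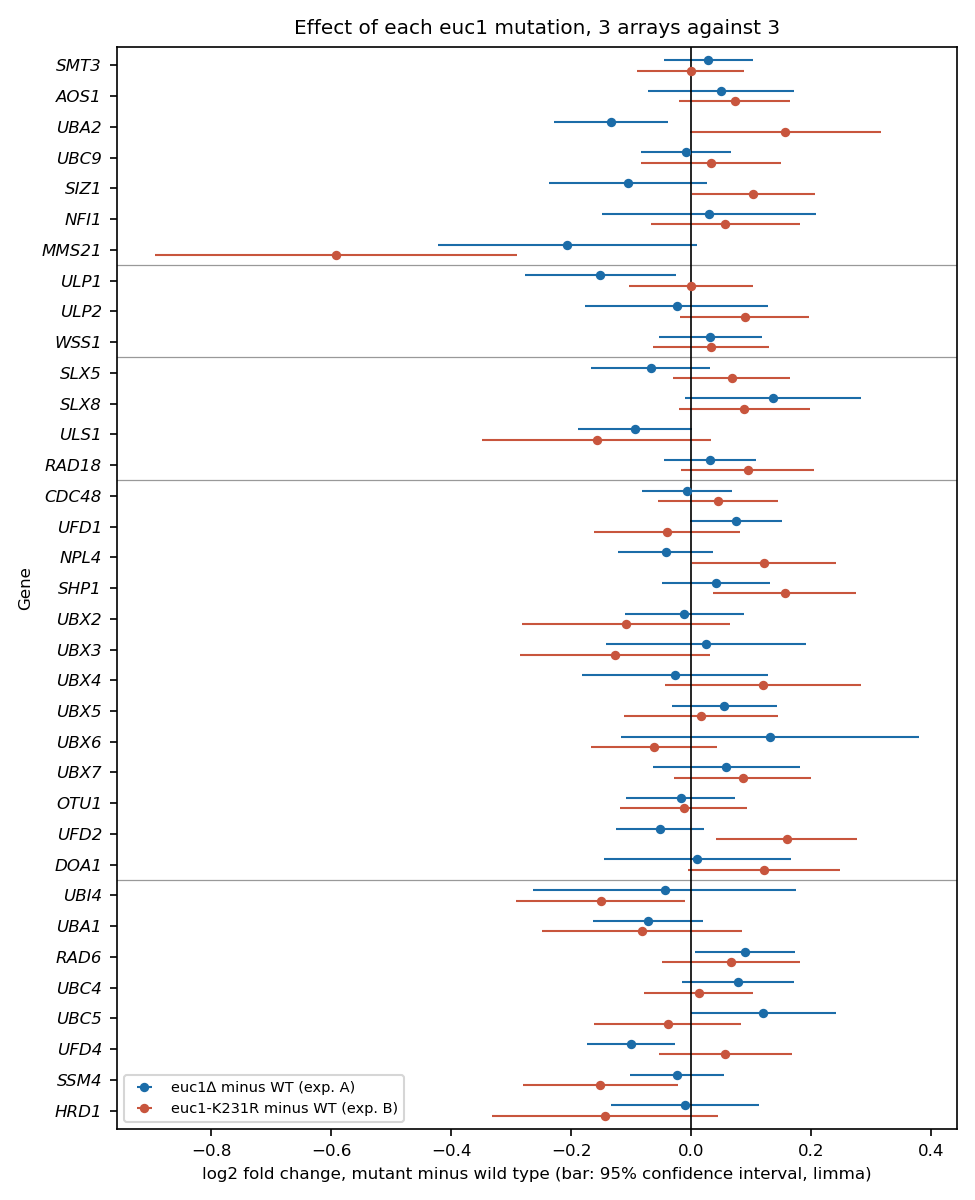
Log2 fold change of each gene (vertical axis, by role) in euc1∆ (blue, experiment A) and euc1-K231R (red, experiment B), with the 95% confidence interval from limma as bars and 3 arrays in each group. Nearly all intervals include 0 or end near it, and MMS21 in euc1-K231R, at -0.59, lies furthest from it.

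A looser description is whether the 3 mutant arrays lay wholly above or below the 3 wild-type arrays. This was so for 11 of the 35 genes in euc1∆ (31.4%, beside 18.1% of all genes), 5 higher (9.84% of all genes) and 6 lower (8.24%), and for 12 in euc1-K231R (34.3%, beside 25.8% of all genes), 10 higher and 2 lower (14% and 11.8% of all genes). The gaps between the nearest mutant and wild-type arrays were small: in euc1∆ they ran from 0.000116 for SLX8 to 0.0757 for UFD4, and in euc1-K231R from 0.00512 for CDC48 to 0.179 for MMS21. Which genes are apart also depends on single arrays. Without mutant replicate 3 the counts were 17 in euc1∆ and 22 in euc1-K231R, but 41.6% and 46.6% of all genes were then apart, and without wild-type replicate 1 of experiment A the count in euc1∆ was 17 (28.9% of all genes).

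SUMO and its conjugating enzymes held the gene with the largest difference. SMT3 (YDR510W), which encodes SUMO itself, read 13.31, 13.32 and 13.27 in wild type and 13.33 on each of the 3 euc1∆ arrays. In experiment B it read 13.46, 13.45 and 13.42 in wild type against 13.43, 13.43 and 13.46 in euc1-K231R. The SUMO transcript thus had nearly the same level in each mutant as in its wild type, with log2 intervals from -0.05 to 0.10 in euc1∆ and from -0.09 to 0.09 in euc1-K231R. UBC9 (YDL064W), the conjugating enzyme, gave the same picture. Its wild-type arrays read 11.30, 11.25 and 11.26 against 11.27, 11.26 and 11.26 in euc1∆, and 11.68, 11.78 and 11.82 against 11.77, 11.83 and 11.78 in euc1-K231R, so that the groups overlapped in both experiments.

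UBA2 (YDR390C) and AOS1 (YPR180W) encode the subunits of the SUMO-activating enzyme and gave different values. UBA2 read 11.05, 11.11 and 11.08 in wild type against 10.89, 10.98 and 10.97 in euc1∆, a log2 fold change of -0.13 with an SE of 0.04 (adjusted p = 0.281), with every mutant array below every wild-type array. The wild type of experiment B read 11.00, 10.98 and 10.87 and euc1-K231R 11.19, 11.16 and 10.98, a log2 fold change of 0.16 with an SE of 0.07 (adjusted p = 0.263), with replicate 3 of the mutant among the wild-type arrays. AOS1 had log2 fold changes of 0.05 ± 0.05 and 0.07 ± 0.04 (SE), and its euc1-K231R arrays, at 11.74 to 11.79, all lay above the wild-type arrays, at 11.69 to 11.72.

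The SUMO ligases differed among themselves. MMS21 (YEL019C), the SUMO ligase that is a subunit of the Smc5-Smc6 complex, read 6.01, 6.10 and 5.64 in wild type against 5.14, 5.46 and 5.37 in euc1-K231R. Every mutant array lay below every wild-type array, and the log2 fold change of -0.59 ± 0.13 (SE) is a 0.663-fold level (95% interval 0.538 to 0.818). Its adjusted p of 0.0994 missed the threshold, and its mutant mean of 5.32 stood just above the S. pombe 95th percentile of 5.29, so that the background limits this value. In experiment A MMS21 read 6.15, 6.19 and 5.87 in wild type against 5.78, 5.88 and 5.93 in euc1∆, with overlapping groups and a log2 fold change of -0.21 with an SE of 0.09 (adjusted p = 0.425). In both experiments replicate 3 was the lowest of the wild-type arrays, and without it the euc1-K231R value was -0.73 with an adjusted p of 0.0288. In a fit over all 12 arrays the adjusted p was 0.0372. Leaving out any other single array did not bring MMS21 past the threshold. The lowest adjusted p of the SUMO conjugation genes then ran from 0.0813 without mutant replicate 3 to 0.325 without wild-type replicate 1 (limma).

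SIZ1 (YDR409W), the ligase behind much of the SUMO attached in yeast, read 8.30, 8.49 and 8.48 in wild type against 8.32, 8.31 and 8.31 in euc1∆. Wild type of experiment B read 8.12, 8.21 and 8.21 and euc1-K231R 8.28, 8.26 and 8.31. The mutant arrays lay within the wild-type range in euc1∆ and all above it in euc1-K231R, with log2 fold changes of -0.10 ± 0.06 (adjusted p = 0.489) and 0.10 ± 0.04 (SE, adjusted p = 0.254). NFI1 (YOR156C), the Siz1-related ligase also called Siz2, had log2 fold changes of 0.03 and 0.06, and its arrays overlapped in both experiments.

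Among the genes for SUMO removal, ULP1 (YPL020C), a protease that matures SUMO and takes it off proteins at the nuclear pore, read 11.10, 11.12 and 11.20 in wild type against 11.06, 10.90 and 11.01 in euc1∆. The euc1∆ arrays all lay lower, with a log2 fold change of -0.15 with an SE of 0.05 (adjusted p = 0.335). In experiment B the wild-type arrays read 10.72, 10.70 and 10.61 and the euc1-K231R arrays 10.69, 10.66 and 10.68, and both means were 10.68. ULP2 (YIL031W), the protease that trims SUMO chains, had log2 fold changes of -0.02 and 0.09, and WSS1 (YHR134W), a protease that acts on proteins crosslinked to DNA, of 0.03 in each mutant.

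SLX5 (YDL013W) and SLX8 (YER116C) encode the subunits of the SUMO-targeted ubiquitin ligase that acts at ub-hotspots. SLX5, the subunit that binds SUMO, read 10.81, 10.90 and 10.90 in wild type against 10.75, 10.81 and 10.84 in euc1∆, with overlapping groups. It read 10.88, 10.81 and 10.87 in the wild type of experiment B and 10.95, 10.91 and 10.90 in euc1-K231R, where every mutant array lay above every wild-type array. The log2 fold changes had the same size and opposite signs, -0.07 ± 0.04 in euc1∆ (adjusted p = 0.537) and 0.07 ± 0.04 in euc1-K231R (SE, adjusted p = 0.399).

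SLX8, which encodes the catalytic RING subunit, was 1 of 2 among the 35 genes whose arrays were apart in both mutants, and it was higher in both. Its wild-type arrays read 8.70, 8.73 and 8.57 and its euc1∆ arrays 8.73, 8.90 and 8.78, a log2 fold change of 0.14 with an SE of 0.06 (adjusted p = 0.428). In experiment B the wild-type arrays read 8.57, 8.68 and 8.66 and the euc1-K231R arrays 8.71, 8.76 and 8.70, a log2 fold change of 0.09 with an SE of 0.05 (adjusted p = 0.329). In euc1∆ the separation was only nominal, since the highest wild-type and the lowest mutant array differed by 0.000116. Over all genes 4.19% were apart in both mutants, beside 5.71% of these 35, so 2 genes of 35 is near the background share.

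ULS1 (YOR191W), a SUMO-binding DNA translocase, read 10.09, 10.18 and 10.09 in wild type against 10.05, 9.99 and 10.04 in euc1∆. For experiment B the values were 10.13, 10.19 and 10.28 in wild type against 9.88, 10.08 and 10.18 in the mutant. The groups were apart in euc1∆ (log2 fold change -0.09 ± 0.04 SE, adjusted p = 0.417) and overlapped in euc1-K231R (-0.16 ± 0.08 SE, adjusted p = 0.324), where replicate 1 was the lowest array. RAD18 (YCR066W), the ligase that joins ubiquitin to PCNA, had log2 fold changes of 0.03 and 0.09, and its arrays overlapped in both experiments.

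**Figure D3:**
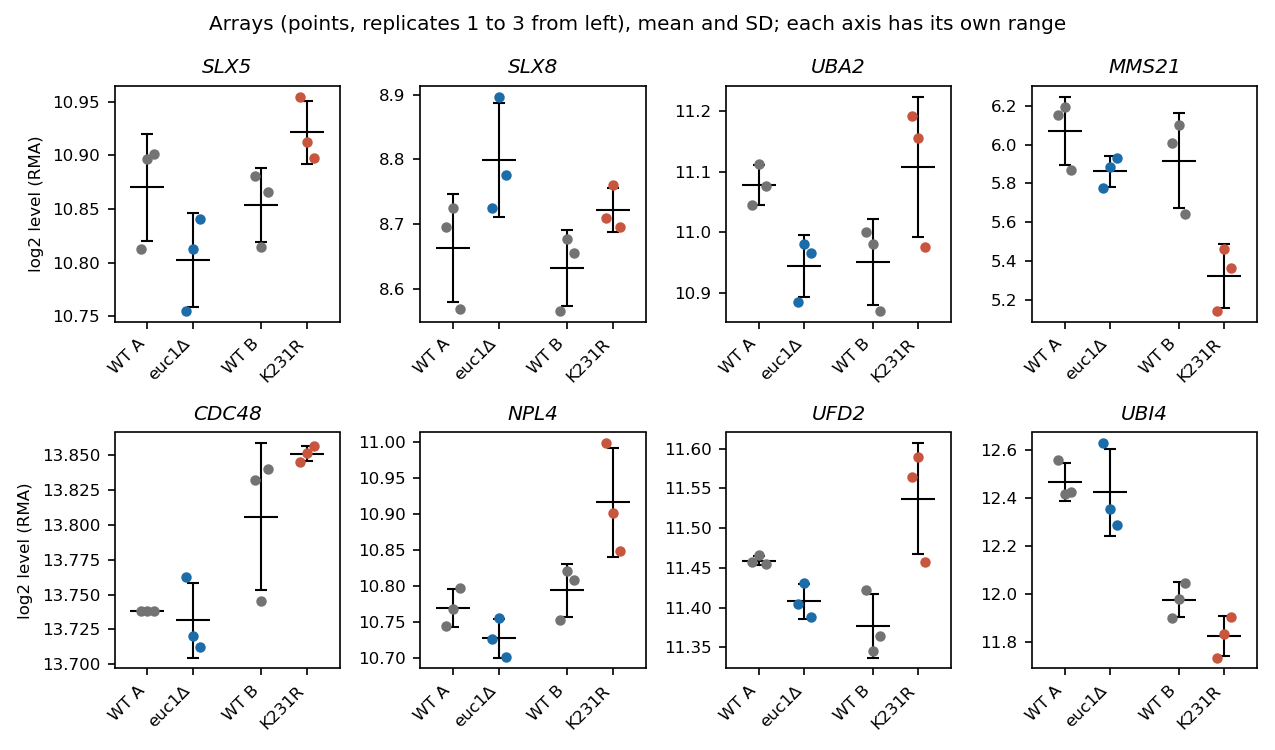
Log2 levels of 8 genes on each array (vertical axes, each with its own range) in wild type and mutant of both experiments (horizontal axis). Points are replicates 1 to 3 from left, and the black marks are the mean and SD of 3 arrays. MMS21 shows the widest separation in euc1-K231R (means 5.92 and 5.32), UFD2 lies lower than wild type in euc1∆ and higher in euc1-K231R, and CDC48 spans a range of under 0.2 within each experiment.

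CDC48 (YDL126C) encodes the ATPase itself, and its level was steady. Its 3 wild-type arrays of experiment A all carried the same deposited value, which reads 13.74, and the euc1∆ arrays read 13.76, 13.72 and 13.71, on either side of it. Such ties were rare: 5 of 5581 genes had equal values on these 3 arrays. In experiment B the wild-type arrays read 13.83, 13.75 and 13.84 and the euc1-K231R arrays 13.85, 13.85 and 13.86. The log2 fold changes were -0.01 ± 0.03 and 0.05 ± 0.04 (SE), with adjusted p-values of 0.946 and 0.585, and the intervals reached no further than 0.08 and 0.15 from 0.

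UFD1 (YGR048W) and NPL4 (YBR170C) encode the partners that let Cdc48 take hold of ubiquitin chains. UFD1 read 9.64, 9.68 and 9.68 in wild type against 9.73, 9.77 and 9.73 in euc1∆, where all mutant arrays were higher (log2 fold change 0.08 ± 0.03 SE, adjusted p = 0.418). In experiment B it read 9.96, 9.98 and 9.93 in wild type against 9.97, 9.97 and 9.82 in euc1-K231R, with overlapping groups (-0.04 ± 0.05 SE). NPL4 showed the reverse order of the mutants. It read 10.74, 10.77 and 10.80 in wild type against 10.73, 10.76 and 10.70 in euc1∆, with overlap (-0.04 ± 0.03 SE, adjusted p = 0.635), and 10.75, 10.82 and 10.81 in wild type against 11.00, 10.90 and 10.85 in euc1-K231R, where every mutant array was higher (0.12 ± 0.05 SE, adjusted p = 0.252).

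UFD2 (YDL190C), a ubiquitin chain-elongating enzyme that binds Cdc48, was the other gene apart in both mutants, in opposite directions. Its wild-type arrays read 11.46, 11.47 and 11.46 and its euc1∆ arrays 11.40, 11.43 and 11.39, a log2 fold change of -0.05 with an SE of 0.03 (adjusted p = 0.529). In experiment B the wild-type arrays read 11.42, 11.35 and 11.36 and the euc1-K231R arrays 11.56, 11.59 and 11.46, a log2 fold change of 0.16 with an SE of 0.05 (adjusted p = 0.17). Neither change passed the test. SHP1 (YBL058W), the yeast p47 cofactor, read 12.17, 12.22 and 12.19 in wild type against 12.26, 12.26 and 12.18 in euc1∆ (0.04 ± 0.04 SE), and 12.32, 12.37 and 12.38 against 12.55, 12.56 and 12.43 in experiment B (0.16 ± 0.05 SE, adjusted p = 0.177). Its groups overlapped in euc1∆ and were apart in euc1-K231R.

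The products of UBX2 to UBX7 are cofactors that link Cdc48 to particular substrates or membranes, and the arrays of all 6 genes overlapped with wild type in both experiments. UBX4 (YMR067C) read 10.49, 10.57 and 10.56 in wild type against 10.61, 10.56 and 10.38 in euc1∆, and 10.59, 10.62 and 10.58 against 10.85, 10.73 and 10.57 in experiment B. UBX5 (YDR330W) read 9.07, 9.13 and 9.04 in wild type against 9.15, 9.14 and 9.11 in euc1∆, and 9.30, 9.32 and 9.30 against 9.39, 9.37 and 9.22 in experiment B. In these 2 genes the mutant replicate 3 was the lowest mutant array in both experiments. UBX2 (YML013W), the membrane anchor of Cdc48 at the endoplasmic reticulum, UBX3 (YDL091C), UBX6 (YJL048C) and UBX7 (YBR273C) had log2 fold changes from -0.01 to 0.13 in euc1∆ and from -0.13 to 0.09 in euc1-K231R. OTU1 (YFL044C), a deubiquitinating enzyme bound to Cdc48, had log2 fold changes of -0.02 and -0.01, and DOA1 (YKL213C), a ubiquitin-binding cofactor, of 0.01 and 0.12, with its euc1-K231R arrays apart from wild type.

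Of the 13 Cdc48 genes, most had their lowest mutant value on replicate 3. It was the lowest of the 3 mutant arrays for 11 of the 13 in euc1∆ (84.6%, beside 40.9% of all genes) and for 12 of the 13 in euc1-K231R (92.3%, beside 52.4% of all genes). Over all 35 genes, the 13 included, the shares were 60% and 62.9%. In the other roles they ran from 0% to 62.5% in euc1∆ and from 25% to 75% in euc1-K231R. On average over the 13 genes the euc1∆ arrays stood at 0.07, 0.04 and -0.04 relative to the wild-type mean, and the euc1-K231R arrays at 0.09, 0.06 and -0.04. Over all genes the corresponding means were 0.00489, -0.00373 and -0.00421 in euc1∆ and -0.00240, -0.00789 and -0.0379 in euc1-K231R, so that replicate 3 of euc1-K231R stood as low over the whole array as over the Cdc48 genes. The wild-type arrays of experiment A stood at -0.0372, 0.0294 and 0.00778 for the 13 genes, and replicate 1 was the lowest of them, or tied, for 9 of the 13 (69.2%, beside 46.7% of all genes). The mutants come from different experiments, and no label links cultures of equal replicate number.

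The general stress genes, a list of 12 that includes HSP12, CTT1 and HSP104, had their lowest mean on the same mutant arrays. Their mean log2 level was 9.95, 10.06 and 10.07 in wild type against 10.33, 10.10 and 9.85 in euc1∆. In experiment B it was 10.32, 10.51 and 10.38 in wild type, against 10.31, 10.28 and 10.18 in the mutant. None of the 12 passed the test in euc1∆ (limma, 1 with an unadjusted p under 0.05, beside 12.4% of all genes). In euc1-K231R 5 of the 12 had an unadjusted p under 0.05, beside 19.4% of all genes. HSP12 (-0.88, adjusted p = 0.0269) and DDR2 (-0.84, adjusted p = 0.0486) passed there, both lower, beside 0.896% of all genes that passed. Over the 12 genes the log2 fold changes in euc1-K231R ran from -0.88 to 0.19, with a median of -0.04. The lower mutant means there are therefore not a fall of the whole list. In euc1∆ the 12 values ran from -0.18 to 0.37, with a median of 0.08. The part of the stress genes in the Cdc48 values was not tested. Without replicate 3 of the mutant, the median log2 fold change of the Cdc48 genes was 0.07 in euc1∆ rather than 0.01. In euc1-K231R it was 0.07 rather than 0.05. These rises follow from the choice of array and test nothing, since replicate 3 was singled out as the lowest for most of these genes. In the same limma fits 0 of the 13 passed in either mutant. At an unadjusted p under 0.05 there were 1 and 6, beside 21.2% and 26.8% of all genes.

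**Figure D4:**
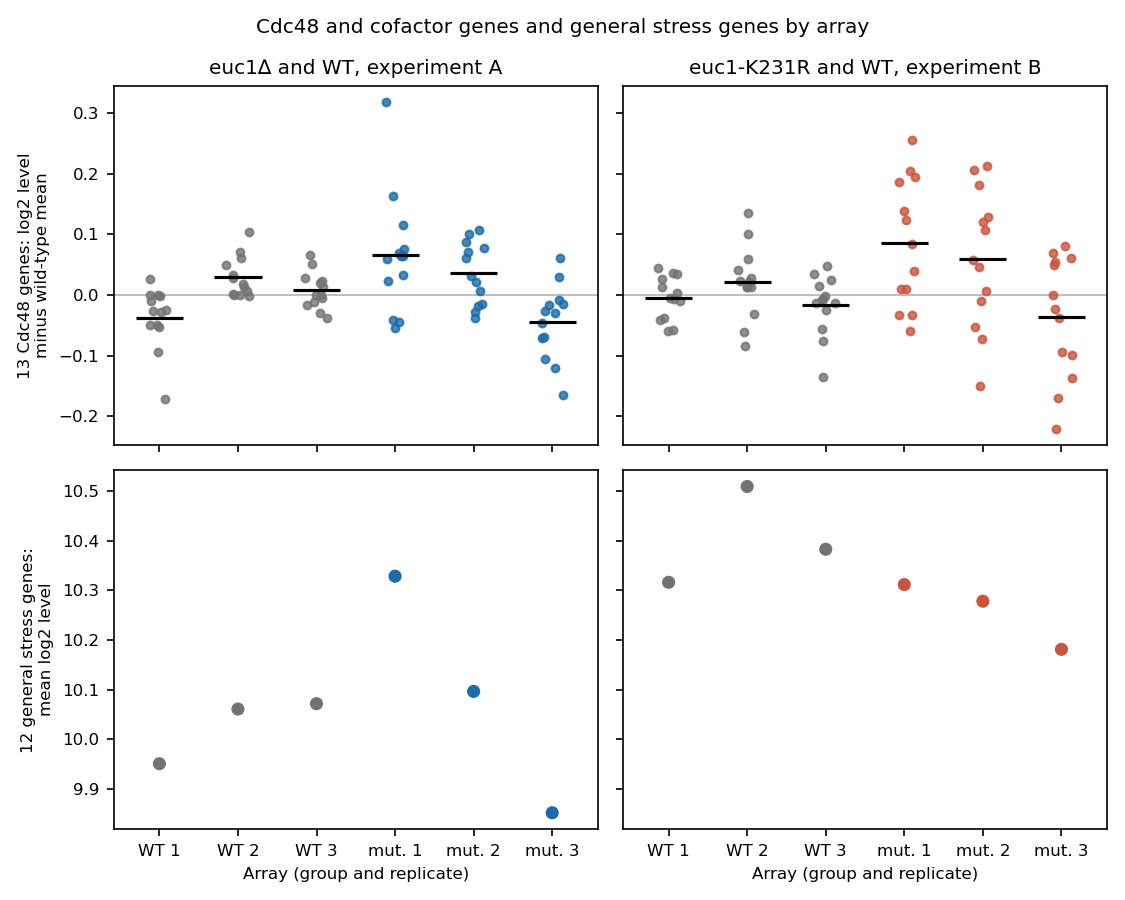
Upper panels show the log2 level of the 13 Cdc48 and cofactor genes on each array minus the wild-type mean of the gene (points), with the mean over genes as a bar. Lower panels show the mean log2 level of the 12 general stress genes on the same arrays (horizontal axis, group and replicate). The median log2 fold change of these 12 genes was 0.08 in euc1∆ and -0.04 in euc1-K231R. Mutant replicate 3 is the lowest mutant array in all 4 panels, at -0.0446 and -0.0358 in the upper panels, where the mean over all genes was -0.00421 and -0.0379, and at 9.85 and 10.18 in the lower ones.

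Of the ubiquitin genes, UBI4 (YLL039C), the stress-induced gene for polyubiquitin, read 12.56, 12.42 and 12.43 in wild type against 12.63, 12.35 and 12.29 in euc1∆, with the widest spread of any of the 35 genes within the euc1∆ group (SD 0.18). In experiment B it read 11.90, 11.98 and 12.05 in wild type against 11.74, 11.84 and 11.91 in euc1-K231R. Both pairs of groups overlapped, with log2 fold changes of -0.04 ± 0.09 (adjusted p = 0.871) and -0.15 ± 0.06 (SE, adjusted p = 0.234). UBA1 (YKL210W), the ubiquitin-activating enzyme, had log2 fold changes of -0.07 and -0.08, with its arrays apart from wild type only in euc1∆.

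RAD6 (YGL058W), the conjugating enzyme for ubiquitin on histone H2B, read 11.06, 10.98 and 11.00 in wild type against 11.10, 11.13 and 11.10 in euc1∆, all higher than wild type (0.09 ± 0.04 SE, adjusted p = 0.378). Experiment B gave 11.15, 11.23 and 11.22 in wild type against 11.32, 11.28 and 11.20 in the mutant, with overlap (0.07 ± 0.05 SE). UBC5 (YDR059C), a conjugating enzyme for the turnover of short-lived proteins, read 10.17, 10.12 and 10.28 in wild type against 10.36, 10.27 and 10.31 in euc1∆ (0.12 ± 0.05 SE, adjusted p = 0.406), and 9.97, 10.06 and 10.06 against 10.07, 9.93 and 9.98 in experiment B (-0.04 ± 0.05 SE). Its groups overlapped in both experiments. UBC4 (YBR082C), its close paralogue, had log2 fold changes of 0.08 and 0.01, and whether the probes of this pair cross-hybridise was not tested.

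UFD4 (YKL010C), a ubiquitin ligase that acts with Ufd2, read 11.26, 11.29 and 11.27 in wild type against 11.15, 11.19 and 11.18 in euc1∆. Its euc1∆ arrays lay at least 0.0757 below the wild-type arrays, the widest gap of the 35 genes in that mutant, and the log2 fold change was -0.10 ± 0.03 (SE, adjusted p = 0.29). Experiment B gave 11.61, 11.49 and 11.52 in wild type against 11.58, 11.63 and 11.58 in the mutant, with overlap (0.06 ± 0.05 SE).

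SSM4 (YIL030C), which encodes the ligase Doa10 of the endoplasmic reticulum and nuclear envelope, read 12.48, 12.54 and 12.54 in wild type against 12.51, 12.50 and 12.49 in euc1∆, with overlap. In experiment B it read 13.11, 13.08 and 13.07 in wild type against 12.89, 12.87 and 13.04 in euc1-K231R, where every mutant array was lower (-0.15 ± 0.06 SE, adjusted p = 0.211). HRD1 (YOL013C), the other ligase of the endoplasmic reticulum in the list, had log2 fold changes of -0.01 and -0.14, with overlapping groups.

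The difference between the effects of the 2 mutations was tested in a limma fit over all 12 arrays, with the effect of euc1-K231R subtracted from that of euc1∆. None of the 35 genes passed (adjusted p of 0.108 or more), beside 1.25% of all genes. At an unadjusted p under 0.05 there were 8 of the 35 (22.9%, beside 16.8% of all genes). In 7 of these 8 the euc1∆ effect was the lower one, which is 20% of the 35, beside 8.12% of all genes. UFD2 had the smallest p, with a difference of -0.21 ± 0.06 (SE, 95% interval -0.34 to -0.09, adjusted p = 0.108). UBA2 differed by -0.29 ± 0.08 (SE, adjusted p = 0.123), SIZ1 by -0.21 ± 0.07 (SE, adjusted p = 0.175) and NPL4 by -0.16 ± 0.06 (SE, adjusted p = 0.21). The others were UFD4 (-0.16), SLX5 (-0.14), ULP1 (-0.15) and, in the other direction, MMS21 (0.39).

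Side by side, the effects had the same sign in the 2 mutants for 20 of the 35 genes and opposite signs for 15. Without replicate 3 of euc1-K231R, UBA2 (-0.36, adjusted p = 0.0392) and UFD2 (-0.25, adjusted p = 0.0411) passed the test of the difference. With all arrays they did not. Leaving out any other single array brought none of the 35 past the threshold, and the lowest adjusted p then ran from 0.0512 to 0.257 (limma).

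Neighbouring pathway genes that are not among the 35 were counted in the same fits. Of 53 further genes for the Smc5-Smc6 complex, ubiquitin conjugation, deubiquitination, delivery to the proteasome and degradation at the endoplasmic reticulum, 0 passed the test in euc1∆, in euc1-K231R or for the difference between the mutants (limma), with 8, 14 and 12 at an unadjusted p under 0.05 (15.1%, 26.4% and 22.6%, beside 12.4%, 19.4% and 16.8% of all genes). Their log2 fold changes lay between -0.22 and 0.14 in euc1∆ and between -0.26 and 0.21 in euc1-K231R. Over the 35 genes the range was -0.21 to 0.14 in euc1∆ and, with MMS21 left aside, -0.16 to 0.16 in euc1-K231R.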

How the data were processed

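RNA from 12 yeast cultures in 4 groups of 3 was hybridised to arrays after labelling of 300 ng total RNA. The authors deposited 1 log2 level per probe set, computed with RMA (background correction, quantile normalisation and summary over probes). RMA and limma are named in the submitters' processing notes, with versions and annotation build not given in the sources used here. Deposited tables of each mutant against wild type, which hold the authors' log2 fold changes and adjusted p-values, were used only to pair probe sets with genes. No value was shared between arrays of different experiments, against 118 to 839 within an experiment, so the experiments were taken as normalised separately.

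Of 5713 S. cerevisiae probe sets, 132 that match several transcripts were left out. Each mutant was compared with its wild type over 6 arrays, and the difference of effects over 12, with limma 3.58.1 (lmFit, eBayes, two-sided) in R 4.3.3, and p-values were adjusted over 5581 genes by Benjamini-Hochberg. The fit was checked on simulated data. Symbols come from RefSeq and matched for all 35 genes. Figures were drawn with matplotlib 3.10.9.

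The 35 genes and the other lists were chosen with earlier results of these data known. Values by array are given for the ub-hotspot machinery, for the 6 genes with the smallest p in each comparison and for those apart in both mutants; AOS1, NFI1, ULP2, WSS1, RAD18 and the rest are summarised. The alternatives were quantile normalisation and median centring of the arrays, a filter on dim probe sets, other priors, probe-set universes and sample sets, array weights, a replicate block and leaving out each array. Same-numbered arrays deviated from their group means with correlations from -0.22 to 0.30, so the numbers were not taken to pair samples. Promoter sequences were not analysed here.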

Additional observations from a re-analysis of the deposited data

Results flagged for a closer look

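UFD2 was marked because its arrays moved apart from wild type in opposite directions in the mutants: every euc1∆ array was lower (log2 fold change -0.05) and every euc1-K231R array higher (0.16). The difference of effects was -0.21, with an unadjusted p of 0.00321 and an adjusted p of 0.108 in limma, so it did not pass.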

How the results depend on the processing

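In euc1∆ no alternative brought any of the 35 genes past the threshold (lowest adjusted p 0.122). In euc1-K231R 1 passed in the 12-array fit (MMS21, adjusted p = 0.0372) and 4 with array weights (MMS21, SHP1, SSM4, UFD2), and for the difference of effects 4 passed with array weights (NPL4, SIZ1, UBA2, UFD2). The weights were estimated gene by gene, because the REML estimate failed to converge in some fits, and called 731 and 626 of all genes there, against 50 and 70 without weights and at most 124 and 100 under any other alternative. With one array left out, the genes that passed numbered 0 to 0 in euc1∆, 0 to 1 in euc1-K231R (MMS21, without wild-type replicate 3) and 0 to 2 for the difference (UBA2 and UFD2, without euc1-K231R replicate 3). In those settings 12 to 17 genes had non-overlapping arrays in euc1∆, beside 23.5% to 41.6% of all genes. For euc1-K231R there were 12 to 22, beside 29.3% to 46.6% of all genes. With the replicate number as a block 0 passed in each comparison, while the block lowered the calls over all genes to 1, 27 and 21. Calls over all genes ran from 1 to 23 in euc1∆, 11 to 731 in euc1-K231R and 21 to 626 for the difference. In euc1-K231R the 50 calls were 10 higher and 40 lower, 25 and 44 after quantile normalisation, 21 and 89 after median centring. The counts at an unadjusted p under 0.05 (limma) moved as well. Quantile normalisation gave 7 of the 35 in euc1∆ and 11 in euc1-K231R, beside 12.9% and 21.9% of all genes. Array weights gave 9 and 16, beside 20.8% and 34.7%. Without replicate 2 of the mutant there were 2 and 1, beside 7.51% and 11%.

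Signs turned only in genes whose log2 value was at most 0.0640 from 0 (p of 0.387 or more). After quantile normalisation SMT3 stood at -0.00205 in euc1∆, 0.00472 in euc1-K231R and -0.00677 for the difference, and UBC9 at 0.00469 in euc1∆, and after median centring UBX5 stood at -0.000754 in euc1-K231R. With one array left out, values ran in euc1∆ from -0.0168 to 0.00685 for UBC9, -0.0221 to 0.00281 for CDC48, -0.0721 to 0.0429 for UBX4 and -0.146 to 0.0240 for UBI4. In euc1-K231R they ran from -0.0125 to 0.00569 for SMT3, -0.00646 to 0.0633 for UBC9, -0.0322 to 0.0200 for ULP1, -0.0652 to 0.00818 for UFD1 and -0.0177 to 0.0714 for UBX5. For the difference they ran from -0.00103 to 0.0847 for SLX8, -0.0196 to 0.131 for ULS1, -0.0159 to 0.0731 for UBX5 and -0.0108 to 0.0519 for RAD6. Non-overlap under changed scaling or left-out arrays was added after seeing the data. Quantile normalisation gave 12 genes apart in euc1∆ (18.5% of all genes) and 18 in euc1-K231R (27.4%). Median centring gave 12 (18.9%) and 15 (27.2%), against 11 and 12 in the deposited values. Dim signal limits MMS21 alone.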
